A study of Mus musculus with 1 sample.

Results

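Genes of natural killer (NK) cell receptors were followed on T cells in the blood of 1 mouse with small cell lung cancer (SCLC). The set consisted of 9 genes, Klra7, Klra3, Klrc1, Klrc2, Klrd1, Klrk1, Klrg1, Klrb1c and Klre1, of 32285 genes in the annotation and 18109 with at least 1 UMI in a called cell. UMIs, the molecular tags of droplet sequencing, stand for single captured RNA molecules. The genes were taken by name, not by a measured value, though earlier results of these data were known. All 9 were found in called cells, with 100 UMIs of Klra3 at the low end and 1685 UMIs of Klrd1 at the high end. They were compared between CD4 T cells, CD8 T cells and cells that carried the NK marker Ncr1 and no T-cell receptor (TCR).

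The mouse belonged to an autochthonous model on a C57BL/6 background, in which Adeno-Cre given into the trachea deletes Rb1 and Trp53 conditionally, and its age and sex were not given. It received only the vehicle, PBS, every 3 days. From 150 µl of its blood, T cells were enriched by negative selection and read in droplets for gene expression and TCR at once, giving 1 library. The treated arm of the study was not analysed here, so no effect of treatment can be read from these values.

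NK receptors of this kind are C-type lectin-like proteins that read the level of MHC class I or of stress ligands on other cells and raise or hold back killing. Klrd1 encodes CD94, which pairs on the surface with NKG2A (Klrc1), an inhibitory chain, or with NKG2C (Klrc2), an activating one, to read the non-classical molecule Qa-1. Klrk1 encodes NKG2D, an activating receptor for stress ligands, Klra7 and Klra3 encode members of the Ly49 family, Klrb1c encodes the NK1.1 antigen of C57BL/6 mice, and Klrg1 encodes a receptor for cadherins known from antigen-experienced T cells. Memory and effector CD8 T cells and invariant NKT cells are known to carry part of this set.

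Cells were called from a limit of 1331 UMIs, which left 1600 cells with a median of 3934.5 UMIs. CD8 T cells were the 524 clonotyped cells with Cd8a or Cd8b1 and no Cd4 UMI (median 7293 UMIs), and CD4 T cells the 266 with Cd4 and neither CD8 gene (median 3857.5 UMIs). NK-marked cells were the 15 cells with an Ncr1 UMI and no clonotype (median 4199 UMIs). A further 137 clonotyped cells held none of these coreceptor UMIs, and 37 held Cd4 together with Cd8a or Cd8b1 UMIs. As cells that should lack the genes, 87 B-marked cells (median 3646 UMIs) served as background. All values come from 1 library, there was no replicate and no test was run. Intervals in brackets are exact 95% intervals, Poisson for UMI sums, Clopper-Pearson for shares and conditional for ratios, and cover counting error only.

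The groups were checked against marker lists. Of 6 T-cell markers, all were found in CD4 and CD8 T cells, with 37.9 and 31.4 UMIs per 10000, and 5 in NK-marked cells at 2.86, where Cd3e was at 0. Of 10 NK markers, all were found in NK-marked cells, with 239 UMIs per 10000 against 16.03 in CD8 and 4.79 in CD4 T cells. The list holds Ncr1, which chose the cells and gave 13.3 of the 239. CD8 T cells held no Ncr1 UMI. One NK-marked cell went against its label, with 1 Ncr1 UMI beside 3 Cd3d and 3 Cd8b1 UMIs and no UMI of any of the 9 genes, and another held 19 Cd79a UMIs, a B-cell marker. The negative selection should remove NK cells, so the 15 cells are those that passed it.

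All 9 genes lie on chromosome 6 of GRCm38, the build named in the submitters' notes. In the RefSeq annotation of GRCm38.p6, matched by symbol, Klrg1 (ENSMUSG00000030114) spans 122270596 to 122282833 and Klrb1c (ENSMUSG00000030325) 128778485 to 128788641. Klre1 (ENSMUSG00000050241) spans 129559365 to 129585828, Klrd1 (ENSMUSG00000030165) 129588092 to 129598775, Klrk1 (ENSMUSG00000030149) 129610323 to 129623903, Klrc2 (ENSMUSG00000052736) 129649602 to 129660737 and Klrc1 (ENSMUSG00000030167) 129666015 to 129682852. Klra7 (ENSMUSG00000067599) spans 130218605 to 130233322 and Klra3 (ENSMUSG00000067591) 130323289 to 130337626.

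The bases before the start of 4 genes are shown because their UMIs were distributed differently over the states of CD8 T cells described further on. Each was cut at the border of the gene and is read 5′ to 3′ on the minus strand from RefSeq sequence of GRCm38.p6, for Klrk1 chr6:129623904-129624114, for Klrb1c chr6:128788642-128788891, for Klra7 the second annotated start at chr6:130233323-130233572 and for Klra3 chr6:130337627-130337876. Capitals mark TGTGGT, the core of the Runx motif, or GGAAGT, an Ets core, on either strand.
Klrk1: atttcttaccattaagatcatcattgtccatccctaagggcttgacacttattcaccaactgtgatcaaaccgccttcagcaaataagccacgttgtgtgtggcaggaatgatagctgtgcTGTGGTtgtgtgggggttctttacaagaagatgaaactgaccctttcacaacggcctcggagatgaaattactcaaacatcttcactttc
Klrb1c: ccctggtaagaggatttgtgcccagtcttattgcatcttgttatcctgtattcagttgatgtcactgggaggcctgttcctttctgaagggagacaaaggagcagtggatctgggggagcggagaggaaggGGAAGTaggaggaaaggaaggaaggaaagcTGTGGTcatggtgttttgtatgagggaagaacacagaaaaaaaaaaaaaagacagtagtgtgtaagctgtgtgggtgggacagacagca
Klra7: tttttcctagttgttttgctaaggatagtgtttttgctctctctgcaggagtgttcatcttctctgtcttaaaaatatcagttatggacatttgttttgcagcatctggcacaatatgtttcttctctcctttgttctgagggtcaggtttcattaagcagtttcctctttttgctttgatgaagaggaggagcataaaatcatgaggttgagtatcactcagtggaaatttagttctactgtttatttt
Klra3: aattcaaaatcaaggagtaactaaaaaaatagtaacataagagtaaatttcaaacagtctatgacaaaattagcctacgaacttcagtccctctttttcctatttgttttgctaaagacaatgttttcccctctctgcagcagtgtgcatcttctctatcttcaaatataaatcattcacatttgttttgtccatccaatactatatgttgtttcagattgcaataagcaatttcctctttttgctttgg
Over the 250 bases before each start, TGTGGT was present for Klrk1, Klrb1c, Klrc1, Klrc2 and 1 of 2 starts of Klre1, and in neither start of Klra7 nor that of Klra3. The bases after the Klra3 start, unlike those of the other starts, were not found in a transcript of the gene. The windows of Klrc1, Klre1 and the first start of Klra7 lay inside the annotated gene, as did the matches of Klrc2. Of 32851 windows of 250 bases in the same table, 14.0% held TGTGGT, 19.7% held GGAAGT and 12.3% held TCACAC, the T-box core, which among these genes occurred before the second start of Klre1. Runx3, which binds the first of these motifs, had 1.71 UMIs per 10000 in CD8 and 0.501 in CD4 T cells. It was named after its value was seen, and its part in the values of these genes was not tested. A match of letters describes the sequence only, and no binding was measured. Klrd1 and Klrg1 were not in the table.

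CD8 T cells held more UMIs of the set than CD4 T cells, and NK-marked cells held more than both. Over all 9 genes, CD8 T cells held 2180 UMIs or 5.55 per 10000 (5.32 to 5.79), CD4 T cells 116 UMIs or 0.985 per 10000 (0.814 to 1.18) and NK-marked cells 421 UMIs or 60.1 per 10000 (54.5 to 66.2). The intervals of the 3 groups did not overlap, and B-marked cells held 2 UMIs, 0.0590 per 10000 (0.00714 to 0.213). UMIs were not corrected for transcript length, so groups are compared within a gene and genes not with each other. Without Klrd1 the rates were 2.34 in CD8, 0.730 in CD4 and 51.7 in NK-marked cells, so the difference between CD8 and CD4 T cells became smaller and that to NK-marked cells larger. At least 2-fold more UMIs per 10000 in CD8 than in CD4 T cells were found for 7 of the 9 genes, against 4.08% of the 9838 genes with at least 20 UMIs in both groups together. Of the 7, all but Klrd1 reached 20 UMIs only with those of CD8 T cells, so the count is not read as a result. The filter was applied alike to all genes. The median ratio was 3.30 over the 9 genes and 0.842 over all genes. Between NK-marked cells and CD8 T cells 9 of 9 were at least 2-fold higher in the former, against 22.8% of 9356 genes, with median ratios of 19.3 and 1.16.

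**Figure D1:**
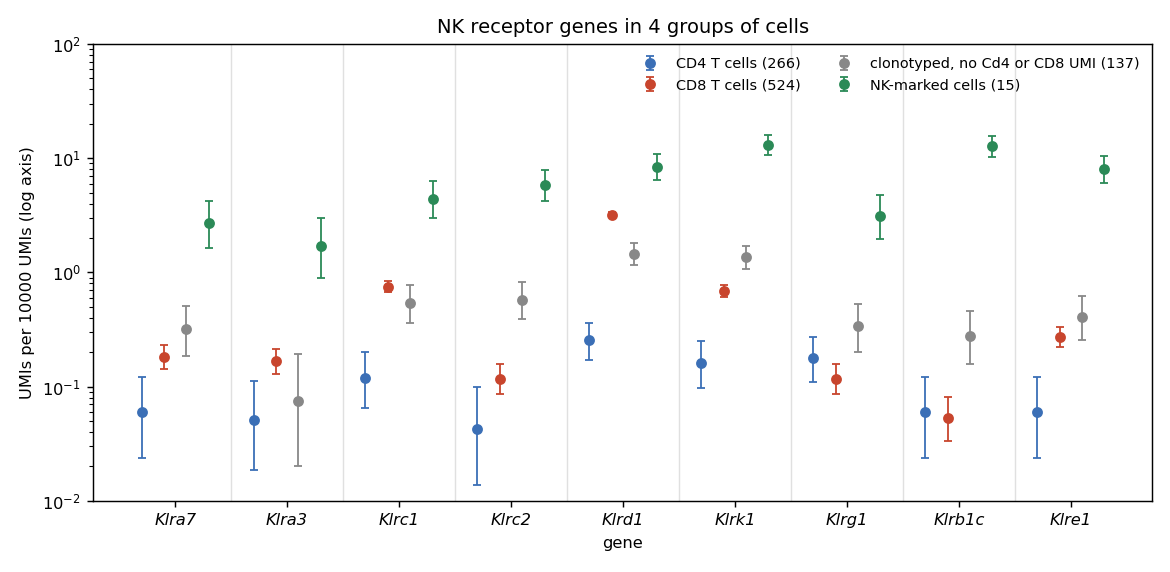
UMIs per 10000 UMIs (log axis) of each of the 9 genes in CD4 T cells, CD8 T cells, clonotyped cells with no coreceptor UMI and NK-marked cells. Points are pooled rates and bars exact 95% Poisson intervals. NK-marked cells were highest for every gene, and the distance between them and CD8 T cells was smallest for Klrd1 and largest for Klrb1c.

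Klrd1 (CD94) was found in CD8 T cells at 3.21 UMIs per 10000 (3.03 to 3.39), 12.6-fold (8.77 to 18.7) the 0.255 (0.172 to 0.364) of CD4 T cells. In NK-marked cells it was at 8.43 (6.42 to 10.9), a 2.63-fold difference to CD8 T cells (1.99 to 3.41), and 1 B-marked cell held 1 UMI. Klrd1 was spread over the CD8 T cells and not held by a few of them. It was found in 408 of 524 cells (77.9%), of which 113 had 1 UMI, 94 had 2, 65 had 3, 57 had 4 and 79 had 5 or more. When each cell was thinned to 2500 UMIs, so that cells of different depth could be compared, it was found in 50.1% of CD8 T cells (45.7% to 54.5%), 4.57% of CD4 T cells (2.21% to 8.24%) and 12 of 15 NK-marked cells, and in 0 of 63 B-marked cells (0% to 5.69%). Thinning left out 11 CD8, 47 CD4 and 24 B-marked cells. Free RNA, estimated from 20532 barcodes with 10 to 50 UMIs and an assumed 5% of each cell's UMIs, would account for 24.7 of the 1259 Klrd1 UMIs of CD8 T cells and 7.41 of the 30 in CD4 T cells.

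The genes of both partners of CD94 were found in CD8 T cells too, in fewer cells. Klrc1 (NKG2A) was found in 72 CD8 T cells, at 0.751 UMIs per 10000 (0.668 to 0.842), against 0.119 (0.0650 to 0.200) in CD4 and 4.43 (3.01 to 6.29) in NK-marked cells. Klrc2 (NKG2C) was found in 30 CD8 T cells at 0.117 (0.0857 to 0.156), and in 10 of 15 NK-marked cells at 5.86 (4.20 to 7.95). In CD4 T cells it was at 0.0425 (0.0138 to 0.0991), so its intervals in CD4 and CD8 T cells overlapped, with a ratio of 2.76 (1.10 to 8.89). Of the 72 CD8 T cells with Klrc1, 67 also held Klrd1 and 27 also held Klrc2. Only 3 CD8 T cells had Klrc2 without Klrc1. After thinning, Klrc1 was found in 10.3% of CD8 T cells (7.84% to 13.3%) and Klrc2 in 2.73% (1.50% to 4.54%), and neither gene in any B-marked cell.

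The balance of the inhibitory and the activating partner differed between CD8 T cells and NK-marked cells. Of all UMIs of either gene, Klrc1 made up 86.5% in CD8 T cells (82.4% to 89.95%) and 43.1% in NK-marked cells (31.4% to 55.3%). The share in clonotyped cells with no coreceptor UMI was 48.3% (35.2% to 61.6%), near that of NK-marked cells. Cell by cell, 68 of the 75 CD8 T cells with either gene had more Klrc1 and 4 more Klrc2, whereas among 14 NK-marked cells 6 had more Klrc1 and 8 more Klrc2. The genes resemble each other, and 18.0% of all 90-base windows in Klrc1 transcripts also occur in Klrc2. In Klrc2, 8.68% of the windows occur in Klrc1 or Klrc3. Windows were counted over whole transcripts, while the part of a transcript that was sequenced is not given in the sources used here. Reads from such windows cannot be assigned to 1 gene, and their part in the values was not tested.

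Klrk1 (NKG2D) was found in 77 CD8 T cells (14.7%) at 0.682 UMIs per 10000 (0.603 to 0.769), 4.23-fold (2.65 to 7.13) the rate of 0.161 in CD4 T cells. It was present in 14 of 15 NK-marked cells, at 13.1 (10.6 to 16.1). After thinning, 11.7% of CD8 T cells (9.04% to 14.8%), 1.83% of CD4 T cells (0.500% to 4.61%), 14 of 15 NK-marked cells and 1 of 63 B-marked cells held a UMI. In CD8 T cells Klrk1 went with Klrc1. It was found in 46 of the 72 cells with Klrc1 (63.9%) and in 31 of the 452 without (6.86%). These shares pool the states of CD8 T cells described further on. Within granzyme cells they were 69.2% (27 of 39) and 24.1% (14 of 58). Within Ly6c2 and Il2rb cells they were 54.8% (17 of 31) and 7.50% (12 of 160). Klre1, which encodes an NK receptor of the same gene cluster, had the same order of groups. Its rate was 0.272 in CD8 (0.223 to 0.329) and 0.0595 in CD4 T cells (0.0239 to 0.123), a 4.58-fold difference (2.15 to 11.7). NK-marked cells were 29.4-fold (20.9 to 40.9) above CD8 T cells, with Klre1 in 13 of 15 cells.

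Klra7 and Klra3 were each present in few CD8 T cells. Klra7 was found in 26 and Klra3 in 25 of 524 cells, and 3 held both. Klra3 was thus found in 11.5% of the cells with Klra7 (2.45% to 30.2%) and 4.42% of those without (2.79% to 6.61%). This does not show that the genes were kept to separate cells. Their rates were 0.183 (0.143 to 0.231) and 0.168 (0.130 to 0.214) UMIs per 10000. Of the 72 Klra7 UMIs, 24 were in 1 cell. In NK-marked cells, Klra7 was found in 4 and Klra3 in 6 of 15 cells, and 2 held both. The rates there were 2.71 (1.63 to 4.24) and 1.71 (0.886 to 2.99). In CD4 T cells the rates were 0.0595 for Klra7 and 0.0510 for Klra3, and 6 of the 7 Klra7 UMIs and all 6 Klra3 UMIs came from 1 cell with an invariant TCR chain. Of the windows of Klra3 transcripts, 2.08% also occur in Klra9 or Klra10, and no window of Klra7 occurs in another gene.

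For Klrg1 and Klrb1c the order of CD8 and CD4 T cells was not settled at this depth, and a few cells decided it. Klrg1 was at 0.117 UMIs per 10000 in CD8 (0.0857 to 0.156) and 0.178 in CD4 T cells (0.110 to 0.273), a ratio of 0.657 (0.384 to 1.16), and at 3.14 (1.97 to 4.76) in NK-marked cells. Of the 21 Klrg1 UMIs in CD4 T cells, 18 were in 1 cell that also held 14 Foxp3 UMIs, the defining factor of regulatory T cells, while the 46 in CD8 T cells were spread over 26 cells. Klrb1c (NK1.1) was at 0.0535 in CD8 (0.0331 to 0.0817) and 0.0595 in CD4 T cells (0.0239 to 0.123), but at 12.7 (10.2 to 15.6) in NK-marked cells, where 13 of 15 cells held it. The difference between NK-marked and CD8 T cells was 238-fold (147 to 403). Without the 3 CD4 and the 3 CD8 T cells that held most UMIs of the set, the ratio of CD8 to CD4 T cells was 6.77 for Klrg1 (1.77 to 57.6) and 3.09 for Klrb1c (0.756 to 27.2). Over all settings tried it ran from 0.382 to 6.77 for Klrg1 and from 0.617 to 6.42 for Klrb1c.

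Single NK-marked cells held most of the set. A median of 6 genes was found per cell, 14 of 15 cells held at least 4 and 2 held all 9. Klrk1 ranged from 0 to 10 UMIs per cell and Klrb1c from 0 to 13. The cell with most UMIs of the set held 53, of which 12 were Klrd1, 8 Klra7, 8 Klrk1, 6 Klrc2, 6 Klrb1c and 6 Klre1. One NK-marked cell had ribosomal protein genes at 0.382% of its UMIs and no Tyrobp, Fcer1g or Gzma UMI, but 11 Klrc2 UMIs, the most of any NK-marked cell. In CD8 T cells the median was 1 gene, 134 of 524 cells held at least 2, and 1 cell reached 7. Of CD4 T cells 7 held at least 2 genes, and no B-marked cell did. After thinning, at least 2 genes were found in 88 of 513 CD8, 4 of 219 CD4 and 14 of 15 NK-marked cells.

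CD8 T cells differed in the set by their state. They were divided by genes outside the set into 97 cells with a Gzma, Gzmb or Gzmk UMI (granzyme cells), 191 cells with no granzyme but Ly6c2 and Il2rb UMIs, as known from memory-phenotype cells, and 236 remaining cells. The median depths were 5567, 9758 and 6012 UMIs. Ccr7, a gene of naive and central memory T cells, was at 1.18 UMIs per 10000 in the granzyme cells, against 7.42 in the remaining cells. Over the 9 genes the rate was 12.8 (11.9 to 13.8) in granzyme cells, 5.09 (4.77 to 5.43) in Ly6c2 and Il2rb cells and 3.20 (2.92 to 3.50) in the remaining cells.

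**Figure D2:**
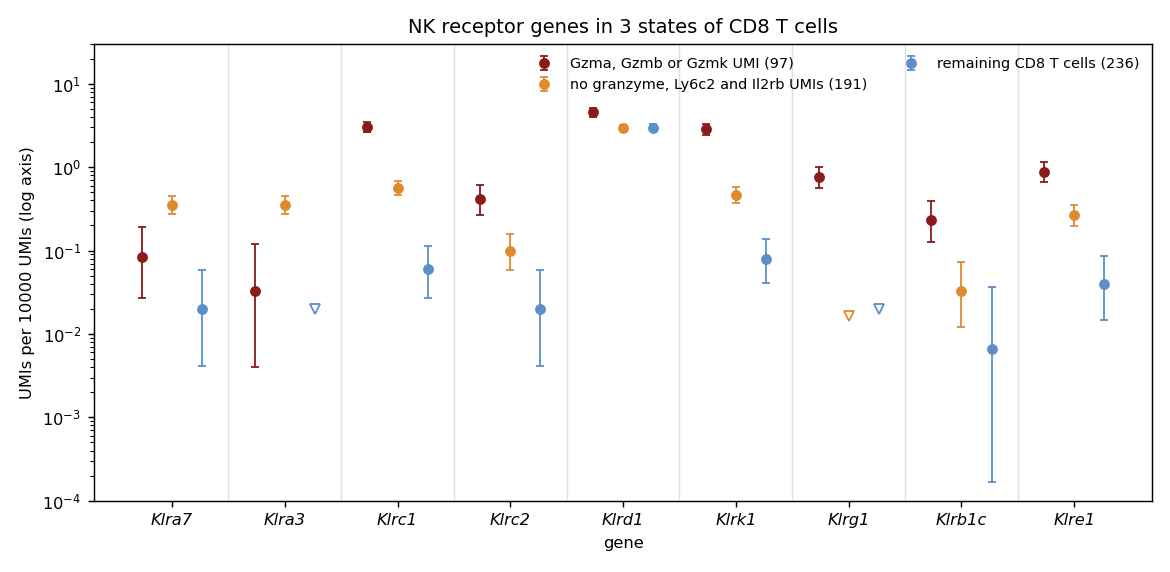
UMIs per 10000 UMIs (log axis) of each gene in the 3 states of CD8 T cells, with exact 95% Poisson intervals. Open triangles mark genes with 0 UMIs at the rate that 3 counts would give. Klrd1 differed least between the states, Klrc1, Klrk1, Klre1, Klrc2 and Klrg1 were highest in granzyme cells, and Klra7 and Klra3 were highest in cells with Ly6c2 and Il2rb but no granzyme.

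Klrd1 was the gene that all 3 states of CD8 T cells shared. It was at 4.53 UMIs per 10000 (4.01 to 5.10) in granzyme cells, 2.96 (2.71 to 3.22) in Ly6c2 and Il2rb cells and 2.98 (2.71 to 3.26) in the remaining cells, and the latter pair did not differ beyond their intervals, with a ratio of 0.993 (0.874 to 1.13). After thinning, 57.7%, 47.9% and 48.7% of the cells held it, whereas without thinning it was 73.2%, 88.5% and 71.2%. The remaining cells carried almost nothing else of the set. Their rate without Klrd1 was 0.225 (0.156 to 0.314), 34 UMIs in 10 of 236 cells, against 8.29 (7.57 to 9.04) in granzyme cells and 2.14 (1.93 to 2.36) in Ly6c2 and Il2rb cells.

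Klrc1, Klrk1, Klre1 and Klrc2 were highest in granzyme cells, lower in Ly6c2 and Il2rb cells and lowest in the rest. In this order, for Klrc1 the rates were 3.04 (2.61 to 3.51), 0.568 (0.464 to 0.689) and 0.0595 (0.0272 to 0.113). For Klrk1 they were 2.84 (2.43 to 3.30), 0.469 (0.374 to 0.579) and 0.0794 (0.0410 to 0.139), and for Klre1 0.880 (0.659 to 1.15), 0.265 (0.195 to 0.351) and 0.0397 (0.0146 to 0.0864). The 3 intervals of each gene did not overlap. Klrc2 was at 0.415 in granzyme cells (0.269 to 0.613), 0.0992 in Ly6c2 and Il2rb cells (0.0588 to 0.157) and 0.0198 in the rest (0.00409 to 0.0580), again without overlap. How many of all genes lay apart in the same way over the 3 states was not counted. After thinning, Klrc1 was found in 35.1%, 8.95% and 0.885% of the cells and Klrk1 in 34.0%, 11.6% and 2.21%. The NK marker list was also highest in granzyme cells, with 42.9 UMIs per 10000 against 13.3 and 8.61, but it holds Gzma, which chose them, and its defining marker Ncr1 was at 0 in all 3 states.

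Klrg1 was seen in granzyme cells alone among CD8 T cells. All 46 UMIs were in this state, in 26 of 97 cells, at 0.764 per 10000 (0.559 to 1.02), and the 191 Ly6c2 and Il2rb cells and the 236 remaining cells held 0 (0 to 0.0203 and 0 to 0.0244). Taking 3 counts over each group of cells as the floor, the rate was at least 46.2-fold and 38.5-fold higher, and the exact intervals of the ratio began at 36.1 and 30.1. Klrb1c followed with 14 of 21 UMIs in granzyme cells, at 0.232 (0.127 to 0.390). Without the largest clonotype, named clone 1 further on, it was at 0.139 (0.0602 to 0.275) in them.

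For Klra7 and Klra3 the order of the states was another. Of their 72 and 66 UMIs in CD8 T cells, 64 each were in Ly6c2 and Il2rb cells, at 0.353 per 10000 (0.272 to 0.451) for both genes. Klra7 was at 0.0830 in granzyme cells and 0.0198 in the rest, and Klra3 at 0.0332 and 0. Without the cell that held most UMIs, the rates in Ly6c2 and Il2rb cells were 0.223 for Klra7 and 0.289 for Klra3. These cells were the deepest of the 3 states. After thinning, Klra7 was found in 8 of 190 and Klra3 in 10 of 190 of them, against 1 of 97 granzyme cells for each gene and 1 and 0 of 226 of the remaining cells, so Ly6c2 and Il2rb cells were highest at equal depth too, on few cells.

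Granzyme cells were at least 2-fold above Ly6c2 and Il2rb cells for 6 of the 9 genes, all of which had at least 20 UMIs in both groups together, against 9.67% of 8389 genes. The 3 others were Klrd1 at 1.53-fold, Klra7 at 0.235-fold (0.0739 to 0.578) and Klra3 at 0.0941-fold (0.0112 to 0.354). Of the 6, Klrg1, Klrc2 and Klrb1c reached 20 UMIs only with those of granzyme cells. The filter was the same for all genes, and the count is not read as a result.

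Klrk1 and Klrc1 were also compared between granzyme cells with Gzma and with Gzmk, Gzmb being present or not in both. In 12 cells with Gzma and no Gzmk, Klrk1 was at 7.80 UMIs per 10000 (5.79 to 10.3) and Klrc1 at 6.39 (4.59 to 8.67). In 54 cells with Gzmk and no Gzma they were at 2.16 (1.68 to 2.74) and 2.20 (1.71 to 2.77). A single clonotype gave a large part of this difference. Without clone 1, a setting chosen after seeing the data, 8 cells with Gzma and no Gzmk remained, with Klrk1 at 4.72 (2.96 to 7.15) and Klrc1 at 3.87 (2.29 to 6.11), and in 53 cells with Gzmk and no Gzma they were at 1.89 (1.44 to 2.44) and 2.21 (1.72 to 2.80). The intervals of Klrk1 were then still apart, and those of Klrc1 overlapped. Klrd1 was at 4.52 (3.03 to 6.50) and 4.17 (3.49 to 4.94) with clone 1 and did not differ beyond its intervals. Of these cells, 6 of 12 and 24 of 54 belonged to clonotypes of 2 or more cells, and cells of 1 clonotype share their origin.

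**Figure D3:**
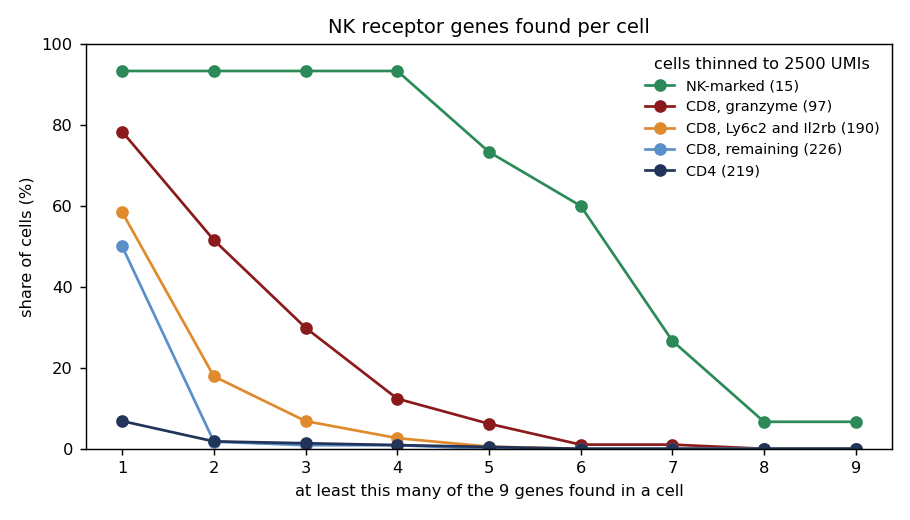
Share of cells (%) in which at least the number of genes on the horizontal axis was found, after thinning each cell to 2500 UMIs, in NK-marked cells, CD4 T cells and the 3 states of CD8 T cells. Lines stand for groups of cells, with the number of cells in brackets. At least 4 of the 9 genes were found in 14 of 15 NK-marked cells and in 19 of 513 CD8 T cells over the 3 states.

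CD8 T cells of expanded clonotypes carried another part of the set than those seen once. Clonotypes with 2 or more called cells held 55 CD8 T cells (median 5116 UMIs), and 469 (median 7815) were the only called cell of their clonotype. Klrg1 was at 0.963 UMIs per 10000 (0.640 to 1.39) in the former and 0.0495 (0.0293 to 0.0782) in the latter. Klrb1c was at 0.447 (0.238 to 0.764) against 0.0220 (0.00950 to 0.0433), Klrk1 at 2.96 (2.37 to 3.65) against 0.500 (0.430 to 0.579) and Klrc1 at 2.58 (2.03 to 3.23) against 0.605 (0.528 to 0.690). Klrd1 differed least, with 4.19 (3.48 to 5.01) against 3.13 (2.95 to 3.31). Without the 9 cells of clone 1, a setting chosen after seeing the data, the rates in the expanded clonotypes were 1.59 (1.13 to 2.17) for Klrk1, 1.51 (1.06 to 2.08) for Klrc1, 0.285 (0.115 to 0.587) for Klrb1c and 1.10 (0.725 to 1.60) for Klrg1, each interval still above that of the single clonotypes. Of the Klrb1c UMIs that then remained, 5 were in 1 cell, so the Klrb1c difference rests largely on that cell. How many of all genes lay apart likewise was not counted. Klra7 and Klra3 had 0 UMIs in the expanded clonotypes (0 to 0.127 per 10000 of each), against 0.198 and 0.181 in the cells of single clonotypes. Of the 55 cells, 42 were granzyme cells, as were 97 of all 524 CD8 T cells. Clonotype sizes were not compared within granzyme cells, so clonotype size and state were not separated here.

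The 2 largest clonotypes and the fourth are shown by the CDR3 bases of their β-chain, because their cells differed in the genes of the set they held. Sequences are those of the deposited contigs, 5′ to 3′. Clone 1 joined TRBV12-2 to TRBJ1-6 (9 cells), clone 2 TRBV1 to TRBJ1-4 (8 cells) and clone 4 TRBV16 to TRBJ2-5 (4 cells, 3 of them with this chain).
Clone 1: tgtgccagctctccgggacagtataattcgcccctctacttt
Clone 2: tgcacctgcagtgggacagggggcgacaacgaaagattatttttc
Clone 4: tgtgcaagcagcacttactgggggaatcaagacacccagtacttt
In clone 1, Klrc1 and Klrk1 were each found in 8 of 9 cells, at 8.40 (5.94 to 11.5) and 10.4 (7.63 to 13.8) UMIs per 10000, Klrd1 in 7, Klre1 in 6 and Klrb1c in 3. In clone 2, Klrc1 was found in 1 of 8 cells at 0.453 (0.0549 to 1.64), Klrk1 in 3 at 1.81 (0.783 to 3.57), Klrd1 in 4, Klrg1 in 3 and Klre1 and Klrb1c in none. The intervals of Klrc1 and Klrk1 of these clones did not overlap, whereas those of Klrd1, 4.42 (2.70 to 6.83) and 2.95 (1.57 to 5.04), did. All 8 cells of clone 2 and 6 of 9 cells of clone 1 held a granzyme UMI. The kind of granzyme differed, since all 8 cells of clone 2 held Gzmk and clone 1 held mainly Gzma. Clonotype and kind of granzyme were thus not separated here.

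Clone 4 carried Klrk1 and Klrd1 in all 4 cells, with 4, 8, 6 and 4 Klrk1 UMIs and, in the same order of cells, 9, 3, 2 and 2 Klrd1 UMIs, and Klrg1 in 2 cells. Clone 3 (TRBV15, 5 cells) held no Klrk1 UMI among 27981 UMIs (0 to 1.32 per 10000), but Klrd1 in 3 cells. Clone 5 (4 cells) held Klrk1 and Klre1 in 3 cells each and no Klrc1. One cell of clone 1 with 5410 UMIs held no UMI of any of the 9 genes, and so did 2 cells of clone 2 with 2685 and 4046 UMIs. Over the 24 clonotypes with 2 or more called cells, Klrd1 was found in 16, in 7 of them in every cell, Klrc1 and Klrg1 in 8 each, in 3 of them in every cell, and Klrk1 in 7.

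**Figure D4:**
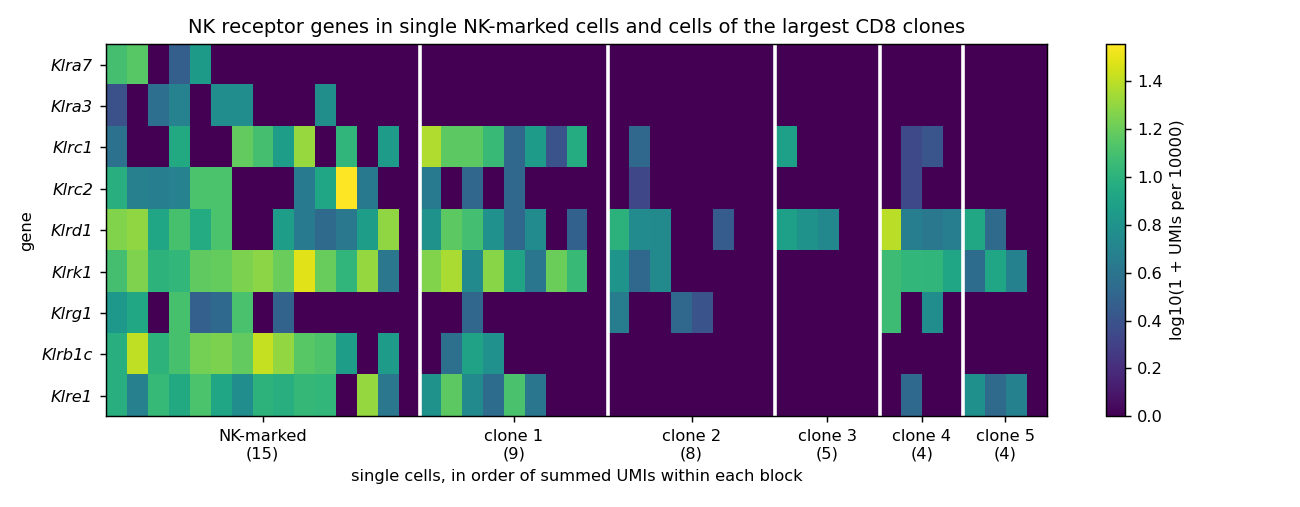
Level of each gene, as log10(1 + UMIs per 10000), in each of the 15 NK-marked cells and in each cell of the 5 largest CD8 clonotypes, with the number of cells in brackets. Each column is 1 cell, dark purple is 0. Klrb1c was found in 13 of 15 NK-marked cells and in 3 cells of clone 1, and no cell of these clonotypes held Klra7 or Klra3.

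CD4 T cells held few UMIs of the set, and most of them were in single cells. At least 1 of the 9 genes was found in 22 of 266 cells (8.27%), or 6.85% after thinning (3.88% to 11.05%), against 58.5% of CD8 T cells (54.1% to 62.8%). The cells with most UMIs held 29, 24, 18 and 10 of the 116. The first carried the invariant chain of NKT cells. The second, the only clonotyped cell with Ncr1, held 7 Ncr1 UMIs together with 8 of the 9 genes and 3 Tyrobp UMIs. It thus held markers of both a T cell and an NK cell. It also held 1 UMI of Zbtb16, a factor of NKT cells. It had no Trac UMI, but Trac was found in only 135 of the 266 CD4 T cells. Which kind of cell it was, was not tested. The third was the Foxp3 cell with 18 Klrg1 UMIs. The 211 CD4 T cells with neither Foxp3 nor S100a4, a gene of antigen-experienced T cells, held 21 UMIs, 0.241 per 10000 (0.149 to 0.369), of which 12 were Klrd1. In 42 cells with S100a4 and no Foxp3 the rate was 2.84 (2.19 to 3.61), but 53 of the 66 UMIs came from the first and the second of these cells. Without both, a setting chosen after seeing the data, it was 0.612 (0.326 to 1.05).

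Invariant NKT cells use a TCR α-chain of TRAV11 and TRAJ18. TRAV11 with TRAJ18 was found in 3 called cells. Their CDR3 bases of the α-chain, read from the contigs 5′ to 3′, are shown because NK1.1 and these 2 segments met in these cells. The CDR3 of cell 3 is longer than those of cells 1 and 2 and differs from them at the junction. Cell 3 thus shares the segments but not the CDR3 of the other cells.
Cell 1: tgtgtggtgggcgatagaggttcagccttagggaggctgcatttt
Cell 2: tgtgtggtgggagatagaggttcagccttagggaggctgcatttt
Cell 3: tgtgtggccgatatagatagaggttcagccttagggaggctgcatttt
All 3 held Klrb1c, with 4, 2 and 2 UMIs, Klrd1, with 8, 8 and 6 UMIs, and Klrk1, with 3, 2 and 9 UMIs. All 3 also held Zbtb16, the factor that defines invariant NKT cells, with 1 to 3 UMIs. Only cell 1 held a coreceptor, 1 Cd4 UMI, and it carried 6 UMIs each of Klra7 and Klra3. More than 1 β-chain was listed for cell 1 and for cell 3. No called cell had TRAV1 with TRAJ33, the chain of MAIT cells. With these, Klrb1c was found in 22 clonotyped cells, of which 11 were CD8 T cells, 3 CD4 T cells and 8 held no coreceptor UMI. Of the 11 CD8 T cells 3 belonged to clone 1.

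Clonotyped cells with no Cd4, Cd8a or Cd8b1 UMI held 5.36 UMIs of the set per 10000 (4.75 to 6.01), near the 5.55 of CD8 T cells, but of another make-up. Klrd1 was lower, at 1.46 (1.15 to 1.82). The pooled rates of Klrk1, Klrc2 and Klrb1c were higher, at 1.36 (1.07 to 1.71), 0.579 (0.393 to 0.821) and 0.280 (0.157 to 0.462). Klrg1 was higher too, at 0.336 (0.199 to 0.531), but 11 of its 18 UMIs were in 1 cell. None of these intervals overlapped with that of CD8 T cells. After thinning, however, Klrk1 was found in a smaller share of these cells, 8.11% against 11.7% of CD8 T cells. As a mean over cells its rates were 0.812 and 0.801, so its higher pooled rate came from few cells. How many of all genes differed likewise was not counted. The UMIs of the set were in 28 of 137 cells (20.4%), and 11 of them held 4 or more of the genes. Their median depth was 3335 UMIs, and a coreceptor can be missed at this depth.

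Some further genes of the receptor families were found mainly in NK-marked cells. Of 9 further Klra genes, 4 had at least 20 UMIs over the 3 groups, and of these Klra4, Klra8 and Klra9 reached that number only with the UMIs of NK-marked cells, so their count is not read as a result. Klra8, which encodes the activating receptor Ly49H, was at 14.3 UMIs per 10000 (11.6 to 17.4) in NK-marked cells, in 12 of 15 cells, and at 0.0127 (0.00413 to 0.0297) in CD8 T cells. Klra4 was at 8.57 (6.54 to 11.03) and 0.0204 (0.00879 to 0.0401). Klra6 had 22 UMIs in 14 CD8 T cells, of which 20 were in Ly6c2 and Il2rb cells, and 4 UMIs in NK-marked cells. Of 8 further Klrb, Klrc, Klrh and Klri genes, Klrb1a, Klrb1b, Klrb1f and Klri2 reached 20 UMIs, all through NK-marked cells. Klri2 had 42 UMIs there, in 12 of 15 cells, and 1 UMI in CD8 T cells, and Klrb1b was at 3.86 (2.54 to 5.61), with none in CD8 or CD4 T cells. Klrb1f was at 2.57 (1.52 to 4.06) in NK-marked and 0.0331 (0.0176 to 0.0566) in CD8 T cells.

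The adaptors of these receptors differed in the groups they were found in. Tyrobp, which encodes the adaptor DAP12 of activating receptors, was at 29.3 UMIs per 10000 in NK-marked cells and 0.115 in CD8 T cells, and Fcer1g at 28.6 and 0.0586. Hcst, which encodes DAP10, the adaptor of NKG2D, was found in all 3 groups, with 4.43 in NK-marked, 5.44 in CD8 and 3.94 in CD4 T cells, and at 8.87 (8.13 to 9.65) in granzyme cells. Of 13 such genes, 11 reached 20 UMIs over the 3 groups. The shares of all genes set beside them are over genes with at least 20 UMIs in the groups compared, a different filter. Among them 6 were at least 2-fold higher in NK-marked than in CD8 T cells, against 22.8% of all genes. Of these 6, Syk and Plcg2 reached 20 UMIs only with the UMIs of NK-marked cells, so the count is not read as a result. At least 2-fold higher in CD8 than in CD4 T cells was 1 of the 11, against 4.08% of all genes. It was Syk, with 14 UMIs in CD8 and 0 in CD4 T cells, which the filter behind that share would leave out. This count is not read as a result either. In the opposite directions none of the 11 was at least 2-fold higher, against 25.4% of all genes for CD8 over NK-marked and 7.93% for CD4 over CD8 T cells. Of 10 ligands of the receptors, the 7 with at least 20 UMIs were found in all 3 groups, and Cdh1, H60b and Raet1d were not. H2-T23, which encodes Qa-1, was at 5.74 in CD4, 4.07 in CD8 and 6.57 in NK-marked cells, and of 7 ligands with 20 UMIs none was at least 2-fold higher in CD8 than in CD4 T cells, 1 was in CD4 over CD8 and 1 in NK-marked over CD8 T cells. Of 12 other receptors, 11 reached 20 UMIs, of which 4 were at least 2-fold higher in CD8 than in CD4 T cells, 1 in CD4 than in CD8 T cells and 6 in NK-marked than in CD8 T cells. The latter 6 include Ncr1, which chose the NK-marked cells. Ncr1 was also the 1 receptor higher in CD4 T cells, with 7 UMIs in 1 cell against 0 in CD8 T cells. It reached 20 UMIs only with those of NK-marked cells. One of the 4, named after its value was seen, was Cd160, at 0.219 in CD8 and 0.0170 in CD4 T cells. Of 11 transcription factors 10 reached 20 UMIs. They were at least 2-fold higher in CD8 than in CD4 T cells for 2, in CD4 than in CD8 T cells for 3, in NK-marked than in CD8 T cells for 6 and in CD8 T than in NK-marked cells for 2. For ligands, other receptors and factors the shares of all genes are those given above, again under a different filter. Their counts are not read as results. Eomes, also named after its value was seen, was at 0.794 in CD8, 0.161 in CD4 and 2.57 in NK-marked cells.

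Genes whose UMIs were most like those of the set were taken from 7205 genes with at least 50 UMIs, by the ratio between the 425 CD8 T cells with and the 99 without a UMI of the 9 genes. Since 408 of the 425 cells held Klrd1, this mainly follows Klrd1. Gzma was at 37.8-fold (10.4 to 313), Gga3 at 12.3-fold (2.13 to 492), Pdcd1 at 9.93-fold (1.71 to 399) and Gm16023 at 9.03-fold (1.55 to 364). Gzmb was at 8.79-fold (2.95 to 43.1), Cep162 at 6.59-fold (1.76 to 55.4), Lgals3 at 6.21-fold (2.61 to 19.4) and F2r at 6.14-fold (2.04 to 30.3). Cep72 and S1pr5 had 85 and 96 UMIs in the cells with and 0 in the cells without, where 3 counts would give 0.0499 per 10000, so they were at least 5.12-fold and 5.78-fold higher over that floor, and their exact intervals began at 4.07 and 4.61. Their place among the 10 genes cannot be set, and the intervals of the 10 genes overlap. Median depths were 7816 UMIs in cells with and 5491 in cells without, and the latter held at most 5 UMIs of any of these 10 genes.

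With the other 8 genes in place of all 9, a setting chosen after seeing the data, 147 CD8 T cells with a UMI stood against 377 without, with median depths of 7883 and 7246 UMIs, and the list was partly another. Cep72 was at 45.4-fold (17.1 to 171), Gzma at 28.2-fold (19.5 to 42.1), Zeb2 at 14.5-fold (8.98 to 24.4), Gzmb at 13.7-fold (8.57 to 22.8) and Pdcd1 at 13.4-fold (6.30 to 32.9). Cx3cr1 was at 13.05-fold (7.75 to 23.3), Lgals3 at 13.01-fold (8.54 to 20.6), Ccr2 at 11.04-fold (6.16 to 21.2), Hip1 at 9.34-fold (4.90 to 19.3) and Lrrk1 at 9.21-fold (6.004 to 14.6). Cep72, Gzma, Gzmb, Pdcd1 and Lgals3 were thus on both lists of 10, and S1pr5 was at 9.08-fold (5.44 to 15.9). Gzma and Gzmb encode granzymes, Pdcd1 encodes PD-1, Zeb2 encodes a transcription factor of effector T cells and NK cells, Cx3cr1 and Ccr2 encode chemokine receptors, and S1pr5 encodes a receptor for sphingosine 1-phosphate.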

How the data were processed

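Gene expression and TCR were read in droplets from 1 library. Per the file headers, the authors made the gene table with Cell Ranger 4, on GRCm38 by the submitters' notes. The deposited values are whole-number UMI counts with no normalization and no filter on cells, and contigs came with a cell call and a clonotype. Cells were barcodes with at least 1331 UMIs, the 99th percentile among the 3000 deepest barcodes divided by 10. Called cells held 62.0% of all UMIs. Doublets were not removed in the main values. Pooled UMIs per 10000 UMIs, shares after thinning to 2500 UMIs (seed 7) and ratios from at least 20 UMIs were computed with Python 3.11.15, NumPy 2.4.6, SciPy 1.17.1 and pandas 2.3.3, and the ratio and thinning were tested on simulated data. The genes and lists were chosen with earlier results of these data known. Besides the 9 genes, the 10 genes most like them, with and without Klrd1, and genes of the adaptor and family lists with at least 20 UMIs are named. Runx3, H2-T23, Cd160 and Eomes were named after their values were seen. The likeness list leaves out genes of ribosomal proteins, mitochondria, TCR and immunoglobulins. The alternatives changed the limit on UMIs, the marking of groups, the weight of clonotypes, doublets, free RNA, thinning, pooling and single cells or genes.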

Additional observations from a re-analysis of the deposited data

Results flagged for a closer look

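UMIs of the 9 genes were also found in barcodes that no comparison uses, above the 0.0590 per 10000 (0.00714 to 0.213) of B-marked cells. The 20532 barcodes with 10 to 50 UMIs from which free RNA was estimated held 2.43 per 10000 (203 UMIs, 2.11 to 2.79). In 94 called cells with no clonotype, no Ncr1 and no B-cell mark, of which ribosomal protein genes took at least 10% of UMIs, the summed rate was 3.995 (178 UMIs, 3.43 to 4.63). Klrd1 was found in 29 of these cells and Klrk1 in 12, and 82 of the 94 held a CD3 UMI. In 440 such cells with under 10% of ribosomal UMIs it was 2.20 (283 UMIs, 1.95 to 2.47), with Klrd1 in 99 and Klrb1c in 3 cells, and 303 of these cells held a CD3 UMI. In 1908 barcodes with 200 UMIs up to the limit for cells it was 0.790 (57 UMIs, 0.598 to 1.02). The first of these rates lies above that of free RNA, the second overlaps with it and the third lies below it. Free RNA was taken above as 5% of a cell's UMIs, so its own rate is not the rate expected in a cell. Which part of these UMIs came from free RNA was not tested. The 37 clonotyped cells with Cd4 and CD8 UMIs also entered no comparison of groups, and held 2.56 per 10000 (49 UMIs, 1.89 to 3.38). Of these UMIs, 20 were Klrg1, at 1.04 per 10000 (0.637 to 1.61), and 19 of the 20 were in 1 cell.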

How the results depend on the processing

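No paired analysis was possible because there was 1 sample. With 1 library there was also no replicate to leave out. Of 65 alternative values of the summed UMIs and shares of the 3 groups, 49 moved by less than their counting interval, 16 moved by more, and the order of the 3 groups in the summed UMIs was the same in all settings run. In CD4 T cells the summed UMIs per 10000 were 0.985, but 0.632 without cells with doublet signs, 0.746 without the cell with most UMIs of the set, 0.393 without the 3 such cells, 0.539 as a mean over cells and 0.730 without Klrd1. In CD8 T cells they were 5.55, but 5.13 with 1 cell per clonotype, 6.05 as a mean over cells and 2.34 without Klrd1. In NK-marked cells they were 60.1, but 68.4 with at least 2 marker UMIs and 51.7 without Klrd1. The share of CD8 T cells with a UMI of the set was 81.1% without thinning and 22.0% without Klrd1, and that of CD4 T cells 3.20% without Klrd1. In NK-marked cells it was 100% with at least 10% ribosomal UMIs, with at least 2 marker UMIs or without a CD3 UMI, each of which leaves out the cell with no UMI of the set. The settings without Klrd1 and without 3 cells were chosen after seeing the data. Of 85 alternative ratios of single genes between CD8 and CD4 T cells 17 moved beyond the counting interval, and of 84 between NK-marked and CD8 T cells 5 did. Klra7 between CD8 and CD4 T cells ran from 2.72 to 21.7, and Klrc2 from 2.26 to 10.6. Only Klrg1 and Klrb1c changed direction, between CD8 and CD4 T cells. Depth limits what an absent UMI says, since 47 CD4 T cells and 11 CD8 T cells held under 2500 UMIs.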
